A study of Drosophila melanogaster with 55 samples.

Results

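Chromatin bound by FLAG-tagged AGO2 was read from fly heads by ChIP-seq with a FLAG antibody, and the islands described here are those that an untagged control did not have. An island is a stretch of the genome in which the ChIP reads were enriched over input DNA. A FLAG-AGO2 island was kept where it shared no base with any FLAG island of w1118, a line without a FLAG-tagged protein, whatever the score and the chromosome. This left 615 of 9421 islands in the first FLAG-AGO2 library (repeat 1) and 578 of 585 in the second (repeat 2), which are called AGO2-only islands below. The control list held 11046 islands. The lists of both repeats were kept apart, because the score of repeat 2 is headed as AGO2 minus WT and that of repeat 1 is not. Since that header names a subtraction of the control, the small overlap of repeat 2 with the control is not read as a result.

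The series holds 55 samples from heads of adult Drosophila melanogaster aged 1 to 2 weeks. The study profiled HP1, H3K9me2, H3K9me3, Top3b and FLAG-AGO2 to ask whether the topoisomerase Top3b and AGO2 act together in heterochromatin. FLAG ChIP was available as 2 libraries of FLAG-AGO2 flies and 1 of w1118. HP1 islands were taken from 3 libraries of w1118, 2 of AGO2 1-1-7, 3 of Top3b26 and 2 of the double mutant Top3b26;AGO2 1-1-7. Islands of Top3b, H3K9me2 and H3K9me3 came from 3 w1118 libraries each. AGO2 1-1-7 is a CRISPR line with deletions in the promoter and in an exon of AGO2, described by the study as a null allele. Top3b26 came from remobilisation of a P element. The main text of the study describes the tagged line as carrying FLAG in its own AGO2 gene, while its stock list names P{Flag.HA/AGO2}2 in a w1118 background, and the sources do not settle which is meant. No agent was given to any group, and the sex of the flies is unstated.

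AGO2 is the Argonaute protein that carries small interfering RNAs in flies and cuts matching transcripts, mainly of viruses and transposable elements. Its RNA-induced silencing complex, RISC, acts largely in the cytoplasm, and in flies AGO2 has also been found on chromatin, at promoters and insulators. HP1 binds histone H3 methylated on lysine 9 and is the hallmark of the silent chromatin around centromeres. FLAG antibodies can also pull down open chromatin at active genes with no tagged protein present, which is why an untagged line serves as the control.

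To show what the leading loci look like, the central 240 bases of the stretch inside AGO2-only islands of both repeats are printed for 6 of the 8 such loci of best mean rank, among them Clamp in pericentric heterochromatin, and for a tRNA gene. Bases are those of the dm6 plus strand, 5′ to 3′, read from RefSeq Release 6. Capitals mark the letters of the motifs searched (Dlc90F, CG32647, CycD and Lrp4, Clamp), an annotated INE-1 transposable element (spen), or the tRNA gene, and CHES-1-like held none of these. Where a transposable element or tRNA gene is marked, motif matches are not, and the tRNA window holds 1 such match, TATAAA on the minus strand.
CHES-1-like, chrX:7704781-7705020: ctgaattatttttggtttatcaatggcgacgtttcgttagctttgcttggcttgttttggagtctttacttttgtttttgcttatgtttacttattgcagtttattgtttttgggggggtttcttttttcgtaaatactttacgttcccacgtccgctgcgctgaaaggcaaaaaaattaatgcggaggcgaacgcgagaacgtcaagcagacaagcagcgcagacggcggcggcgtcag
Dlc90F, chr3R:18299181-18299420: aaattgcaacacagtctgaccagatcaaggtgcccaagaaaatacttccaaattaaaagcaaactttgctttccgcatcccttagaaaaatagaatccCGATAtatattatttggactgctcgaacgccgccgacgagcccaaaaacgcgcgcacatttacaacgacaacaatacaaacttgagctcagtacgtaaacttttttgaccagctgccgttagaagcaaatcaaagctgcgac
spen, chr2L:179681-179920: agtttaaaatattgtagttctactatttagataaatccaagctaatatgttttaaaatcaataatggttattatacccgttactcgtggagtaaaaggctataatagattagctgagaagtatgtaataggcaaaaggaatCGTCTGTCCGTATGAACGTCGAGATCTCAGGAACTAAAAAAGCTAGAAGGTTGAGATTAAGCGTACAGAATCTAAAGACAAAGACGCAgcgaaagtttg
CG32647, chrX:12779031-12779270: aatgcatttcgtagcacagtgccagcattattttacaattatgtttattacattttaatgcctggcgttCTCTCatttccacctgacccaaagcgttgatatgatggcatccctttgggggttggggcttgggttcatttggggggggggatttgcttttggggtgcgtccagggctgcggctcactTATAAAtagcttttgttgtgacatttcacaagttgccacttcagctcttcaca
CycD and Lrp4, chrX:15910531-15910770: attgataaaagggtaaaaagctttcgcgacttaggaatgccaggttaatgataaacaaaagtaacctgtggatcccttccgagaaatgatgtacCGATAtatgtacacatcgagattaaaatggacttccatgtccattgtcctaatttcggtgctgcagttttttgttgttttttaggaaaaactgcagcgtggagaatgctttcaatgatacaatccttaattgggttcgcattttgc
Clamp, chr2L:22168081-22168320: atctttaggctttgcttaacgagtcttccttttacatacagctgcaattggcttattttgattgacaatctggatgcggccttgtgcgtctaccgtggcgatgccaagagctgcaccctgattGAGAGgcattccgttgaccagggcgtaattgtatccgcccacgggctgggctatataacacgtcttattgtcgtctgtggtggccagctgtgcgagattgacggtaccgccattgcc
tRNA:Ile-TAT-1-1, chr3L:769481-769720: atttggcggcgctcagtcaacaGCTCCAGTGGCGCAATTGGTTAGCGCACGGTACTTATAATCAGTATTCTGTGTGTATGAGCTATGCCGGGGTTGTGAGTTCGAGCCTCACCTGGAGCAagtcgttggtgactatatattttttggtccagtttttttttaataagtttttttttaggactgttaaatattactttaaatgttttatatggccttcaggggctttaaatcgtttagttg

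The Dlc90F window spans that gene's annotated start, and the CycD and Lrp4 window lies between the starts of those genes. The windows of spen and CG32647 are wholly intronic, that of CHES-1-like is 76.2% exonic and that of Clamp 83.8%. The motifs searched, on both strands, were GAGAG (the element of GAGA factor and Clamp), CGATA (BEAF-32), TGCATA (the Su(Hw) core) and TATAAA (the TATA box). The last bases of CGATA or TGCATA can also be the first of TATAAA. In the central 300 bases of the islands, GAGAG was present in 36.8% of 614 windows of repeat 1, 33.2% of 578 windows of repeat 2 and 36.6% of control windows, against 30.3% of all 300-bp windows of the genome. CGATA was present in 26.9% and 35.3%, against 28.8% in the control and 30.2% genome-wide. TGCATA was present in 21.0% and 16.1%, against 16.4% and 17.9%. TATAAA was present in 33.6% and 35.1%, against 23.2% and 30.2%. Median GC content was 41.0% in repeat 1 and 40.0% in repeat 2, below the 46.3% of control windows and near the 42.0% of the genome. A match to these letters is a description and not a site of binding.

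The AGO2 gene itself differed between the libraries. In repeat 1 a single island of 11.6 kb with a score of 4191, the 9th highest of 9421, covered 100% of AGO2 (chr3L:15554113-15561042, plus strand). In w1118 the same region held separate islands at the start of the gene (score 759) and downstream of its end (score 1166), and 8.48% of the gene was covered. In repeat 2 no island lay on AGO2. Because the repeat 1 island touches those of the control, AGO2 is not among the genes of the AGO2-only islands. FLAG islands of w1118 covered 15.3% of the genome, 93.5% of repeat 1 islands touched one, and 78.9% of control islands touched one of repeat 1. Genes of photoreceptors (ninaE), neurons (elav) and glia (repo) all lay at least partly in FLAG islands of both repeat 1 and w1118, and none lay in repeat 2, but ChIP islands give no RNA level by which the tissue could be checked. The number of reads behind each list is unknown, and with 1 control library and 2 lists made headed differently no replicate test was made.

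**Figure D1:**
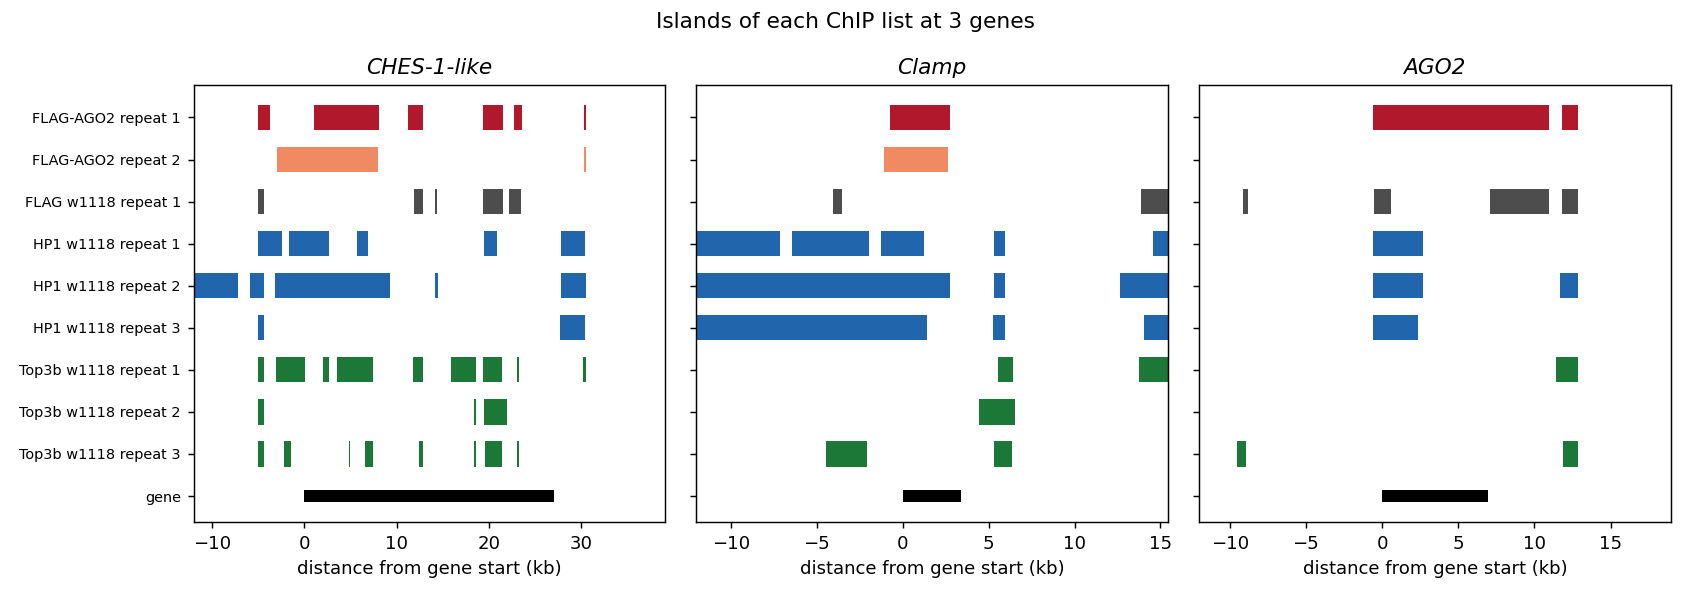
Islands of FLAG, HP1 and Top3b lists (rows) against the distance from the gene start in kb, read in the direction of transcription, at CHES-1-like, Clamp and AGO2. Both FLAG-AGO2 repeats have an island over the start of Clamp and the first part of CHES-1-like where w1118 has none, while at AGO2 only repeat 1 spans the gene.

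The AGO2-only islands were short and of low score. In repeat 1 they covered 668.8 kb, with a median length of 800 bp, and their scores ran from 66 to 1652 with a median of 196. The 8806 islands of repeat 1 that touched the control had a median score of 339. In repeat 2 they covered 634.2 kb, with a median length of 700 bp, and scores from 69 to 2874 with a median of 220. A score of at least 200, the minimum used by the study, was reached by 302 islands of repeat 1 and 334 of repeat 2. Scores followed length within each list (Spearman's rho 0.91 over 615 islands and 0.96 over 578), so a high score mainly marks a long island. A longer island also shares a base with the control more easily and is then dropped by the rule. The short lengths and low scores of AGO2-only islands are thus partly set by the rule and are not read as a result. The nearest control island lay at a median distance of 3400 bp in repeat 1 and 3200 bp in repeat 2, and 61.8% and 65.2% of the islands lay within 5000 bp of one. At the edge of the rule, the closest AGO2-only island of repeat 1 lay 100 bp from a control island (chr3R:27156101-27159100, score 399), and the island excluded for the smallest overlap shared 2.5% of its length (chrX:16929901-16933900, score 616). In repeat 2 the closest one abutted a control island (chr3L:5607701-5609100, score 320), and the 7 excluded islands shared 3.85% to 9.52% of their length, the least of them at tay and MSBP.

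A minority of the islands recurred. In repeat 1, 204 AGO2-only islands (33.2%) overlapped an AGO2-only island of repeat 2, and in repeat 2, 205 (35.5%) overlapped one of repeat 1. The shared stretches measured 203 kb, 30.4% of the AGO2-only length of repeat 1 and 32.0% of that of repeat 2. Among the 100 highest scores, 51 of repeat 1 and 51 of repeat 2 were shared. Over the 205 overlapping pairs the scores of both lists had a Spearman's rho of 0.77, a description, since the pairs share the control list and the dependence on length. Most of the remaining islands had no counterpart of any kind, with 410 of repeat 1 absent from the whole list of repeat 2 and 356 of repeat 2 absent from the whole list of repeat 1.

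**Figure D2:**
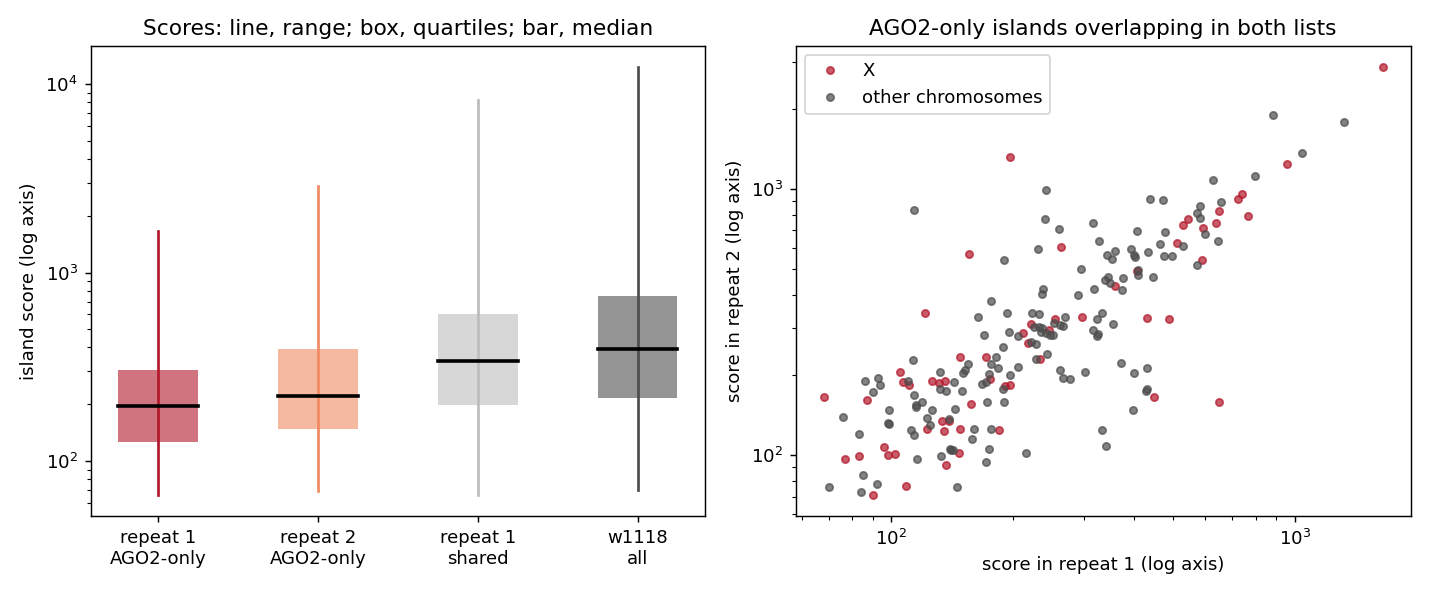
Left, island scores on a log axis for AGO2-only islands of both repeats, repeat 1 islands shared with the control and all w1118 FLAG islands (line, range; box, quartiles; black bar, median); medians of AGO2-only islands, 196 and 220, lie below the 339 of shared islands. Right, score in repeat 1 against score in repeat 2, both on log axes, for the 205 overlapping pairs, with CHES-1-like at the top right (1652 and 2874). The order of the medians on the left is partly set by the rule, which drops long islands more easily.

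CHES-1-like, which encodes a forkhead transcription factor, held the AGO2-only island of highest score in both repeats. Its island scored 1652 in repeat 1 (chrX:7701301-7708400) and 2874 in repeat 2 (chrX:7701401-7712400), and the nearest control island lay 3800 and 1400 bp away. The island of repeat 1 was 88.6% intronic and ended short of the gene start, whereas that of repeat 2 crossed the start. The island over the starts of Dlc90F, a dynein light chain gene, Polr1E, a subunit gene of RNA polymerase I, and 1 other gene ranked 4 in both repeats (chr3R:18296801-18302300, score 1322, and chr3R:18296601-18301800, score 1784). It lay 7500 and 8000 bp from the control.

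The hts gene, which encodes the adducin of the membrane skeleton, carried 3 AGO2-only islands in each repeat. The strongest spanned the divergent starts of hts and CalpA, a calpain protease gene (chr2R:19422901-19426200, score 886, and chr2R:19420801-19427800, score 1899). A second lay in an intron of hts with snoRNA:hts-a, tRNA:Ser-CGA-1-4, tRNA:Val-AAC-2-1 and tRNA:Val-AAC-2-2 (scores 797 and 1119). FLAG islands of w1118 covered 6.46% of the gene elsewhere.

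The other loci of best mean rank lay on 2L, 2R and the X. An intron of spen, which encodes a nuclear RNA-binding protein, scored 1046 and 1373 (chr2L:177801-181800 and chr2L:177301-181800), and both islands lay 900 bp from the control. CG32647 scored 960 and 1242 (chrX:12776201-12782100 and chrX:12776001-12782100). The region between CycD, a cyclin gene, and Lrp4, a lipoprotein receptor gene, scored 739 and 964. Clamp, whose zinc-finger protein binds GA repeats and takes part in dosage compensation, scored 626 and 1087. Tob, of the antiproliferative BTG family, scored 725 and 920, and Glo1, the glyoxalase gene, 656 and 892. In each of these the island of repeat 2 overlapped at least 2500 bp of that of repeat 1.

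Other high-scoring loci belonged to 1 repeat alone. In repeat 1 these were an intron of HDAC4, a class IIa histone deacetylase gene (chrX:13277301-13283500, score 1323), CG31808 (chr2L:16705601-16712000, score 895) and Hk, which encodes the beta subunit of the Shaker potassium channel (chrX:10259801-10262600, score 851), together with 2 islands of 1 kb outside any gene. One of these, with a score of 1379, was the last kilobase of the assembled 2L arm (chr2L:23512701-23513700), 19500 bp from the nearest control island, and the other scored 1263 (chrX:21471301-21472300). None of these 5 islands touched an island of repeat 2. In repeat 2 the corresponding loci were an intron of Pka-C1, the catalytic subunit gene of protein kinase A (chr2L:9686001-9694500, score 1807), the start of Map205, a microtubule-associated protein gene (chr3R:32067501-32070900, score 1486), and the region of her, grp and squ (chr2L:16679101-16681100, score 1173). Here her acts in sex determination, grp is the fly Chk1 kinase gene and squ belongs to the piRNA pathway. None of these 3 touched any island of repeat 1. The island at Parg and Mnt (score 1322) overlapped an AGO2-only island of repeat 1 over 10.2% of its length, and that in ctrip (score 1273) lay wholly in a repeat 1 island that touched the control.

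Where the islands lay in the genome differed between the repeats. Repeat 1 was richest on the X, with 200 of 615 islands (32.5%), whereas 119 of 578 (20.6%) of repeat 2 and 22.4% of control islands lay there, and the X makes up 17.1% of the assembled length. In repeat 2 the arms 2L, 3L and X held 118, 119 and 119 islands and the whole list 120 on each, equal numbers although the arms differ in length. Whether the deposited list of repeat 2 is complete could not be settled, so its arm shares and the islands missing from it hold for the list as deposited. Pericentric heterochromatin, as the study bounded it on chromosomes 2 and 3, held 78 islands of repeat 1 (12.7%) and 37 of repeat 2 (6.40%), against 1.61% of repeat 1 islands shared with the control and 3.44% of control islands. It makes up 10.9% of the genome. On the fourth chromosome lay 7 and 8 islands (1.14% and 1.38%), beside 0.552% of control islands and 0.980% of the genome. The Y held 12 and 2 (1.95% and 0.346%), beside 0.625% of control islands and 2.67% of the genome.

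The repeats also differed in gene structure. Introns took 59.2% of the AGO2-only length in repeat 1 and 47.2% in repeat 2, against 38.8% in the control and 42.2% of the genome. Exons took 16.2% and 31.6%, against 44.5% and 26.2%. A gene start lay within 250 bp of 15.3% of the islands of repeat 1, near the 15.5% of all 1-kb bins of the genome. In repeat 2 the share was 43.6%, near the 42.8% of control islands. The islands found in both lists were between, at 31.4% by repeat 1 and 32.2% by repeat 2, and those of repeat 2 absent from repeat 1 reached 50.3%. Longer islands reach a gene start more easily, and these shares were not adjusted for length. Median island length was 800 bp in repeat 1, 700 bp in repeat 2 and 1300 bp in the control. Outside all annotated genes lay 167 islands of repeat 1 and 98 of repeat 2. By length, 24.6% and 21.2% lay outside genes, beside 16.7% in the control and 31.6% of the genome.

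**Figure D3:**
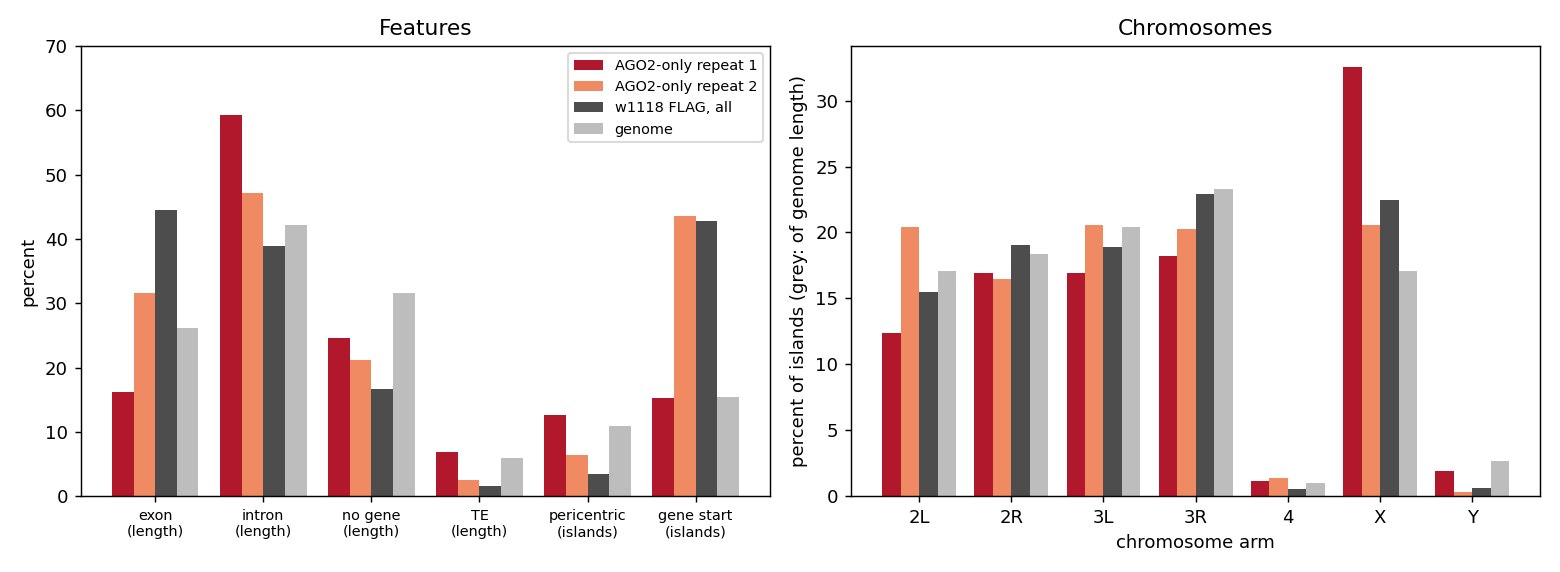
Left, percent of island length in exons, introns, no gene and transposable elements (TE), and percent of islands in pericentric heterochromatin and at a gene start, for AGO2-only islands of both repeats, all w1118 FLAG islands and the genome (1-kb bins for gene starts). Right, percent of islands on each chromosome arm, with the arm's share of the genome in grey. Repeat 1 stands out in introns (59.2%) and on the X (32.5%). At gene starts repeat 2 (43.6%) is near the control (42.8%), whose islands are longer (median 1300 bp against 700 bp).

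In pericentric heterochromatin the leading islands of repeat 1 were the end of 2L, Clamp (score 626) and an intron of Myo81F, a myosin gene (chr3R:759801-763600, score 580). Myo81F carried 14 AGO2-only islands of repeat 1 and 4 of repeat 2, the largest number of any gene in repeat 1. Its annotated span is very long (chr3R:567076-2532932), beside a median of 1646 bp for all genes. The number of islands was not set against gene length. The leading pericentric islands of repeat 2 were Clamp (score 1087) and the ribosomal protein genes RpL5 (chr2L:22534101-22536800, score 834) and RpL15 (chr3L:27266301-27269300, score 671). On the fourth chromosome the highest repeat 1 island (chr4:932601-934800, score 536) was 97.2% transposable element, followed by one of score 285 outside genes and one at lgs, a Wnt pathway coactivator gene (score 251). In repeat 2 the fourth-chromosome leaders were apolpp, the lipoprotein precursor gene (score 700), the start of toy, a Pax6 gene of eye development (score 543), and an island wholly within transposable elements (score 352). The 3 highest Y islands of repeat 1 lay outside genes (score 591) and in introns of kl-5, a sperm dynein gene (score 359), and ORY (score 349). Both Y islands of repeat 2, in Ppr-Y (score 195) and outside genes (score 138), lay wholly inside AGO2-only islands of repeat 1.

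Transposable elements were touched by 88 islands of repeat 1 (14.3%) and 49 of repeat 2 (8.48%). The shares were 4.83% of control islands and 8.68% of all 1-kb bins. By length, elements took 6.87% and 2.58% of the AGO2-only islands, beside 1.54% of control islands and 5.91% of the genome. The families with most islands were 1360, a P-element relative found mostly in and near heterochromatin, and INE-1, a short element spread through the genome. These families are named because their counts were highest. Elements of 1360 lay in 41 islands of repeat 1 (6.67%), 5 of repeat 2 (0.865%) and 127 control islands (1.15%). Of the 41, 20 were pericentric, and all 41 lay in HP1 islands of all 3 w1118 libraries. INE-1 lay in 24 islands of repeat 1 (3.90%) and 36 of repeat 2 (6.23%), against 0.996% of control islands. Of these, 18 of the 24 and 24 of the 36 were in HP1 islands of all 3 libraries. Among all AGO2-only islands, 23.1% of repeat 1 and 15.1% of repeat 2 were in HP1 islands of all 3. The same share was not computed for control islands with these elements, nor for their other copies, so it is not read as a trait of AGO2-only islands. Reads with more than 3 positions in the genome were dropped by the authors, so copies that are identical to others are under-represented in every list.

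By gene span, 442 genes of repeat 1 shared a base with an AGO2-only island (2.42% of 18277 annotated genes), 593 of repeat 2 did (3.24%), and 221 did in both (1.21%). These shares are the background for the lists below. The genes of repeat 1 were long, with a median span of 22617.5 bp, those of repeat 2 had a median of 4691 bp, and all annotated genes 1646 bp. Of the genes of repeat 1, 71.9% also carried a w1118 FLAG island elsewhere in their span, as did 47.4% of those of repeat 2, beside 52.7% of all annotated genes, and 89 of the 221 shared genes carried none. Counted by gene starts within 250 bp, there were 130 genes in repeat 1, 348 in repeat 2 and 94 in both.

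The lists of RNA silencing genes held no member. None of the 5 Argonaute genes, the 15 other small RNA pathway genes, the 9 genes of RISC and Top3b partners (Fmr1, Rm62, vig and Tdrd3 among them) or the 8 hairpin RNA genes lay in an AGO2-only island of either repeat. Of these, 3, 13, 9 and 2 genes lay in FLAG islands of w1118, so for most of them the control had signal in the gene. With lists this short and shares over all genes of 2.42% and 3.24%, a count of 0 is near the background and is not read as a result. Outside these lists, genes of the piRNA pathway were touched, squ (repeat 2, score 1173) and, named after their values were seen, papi (repeat 2, score 1017) and tej (328 and 639). The squ island also touched her and grp, and the papi island also touched mio. No separate list of piRNA pathway genes was drawn up, so no share of that pathway stands beside these names and they are not read as a result. Of 6 genes that give rise to endogenous siRNAs, 1 was touched, tkv, a BMP receptor gene (repeat 1, score 520). Of 17 genes for HP1 and H3K9 methylation machinery 1 was touched, Su(var)3-3, a histone demethylase gene (repeat 1, score 111). None of 12 insulator and GAGA protein genes, 18 immune and stress peptide genes, 111 histone genes or 117 ribosomal RNA genes was touched in either repeat. FLAG islands of w1118 lay in 12, 2, 0 and 9 of these. Reads with more than 3 positions were dropped by the authors, so genes present in many near copies can be missed in every list. These counts of 0 are not read as a result either.

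Genes for ecdysone and activity responses were touched in 5 of 14 cases in repeat 1 (35.7%), 3 in repeat 2 (21.4%) and 3 in both, and all 14 also lay in FLAG islands of w1118. The 3 in both were EcR, the ecdysone receptor gene (scores 393 and 594), ftz-f1, a nuclear receptor gene (497 and 562), and sr, the fly Egr gene (429 and 175). In repeat 1, br (score 362) and CrebA (score 246) were added. These genes are long, with a list median of 29623 bp. Of 18 voltage-gated channel genes, 4 were touched in repeat 1 (22.2%) and 2 in repeat 2 (11.1%), and all 18 lay in FLAG islands of w1118. The presynaptic calcium channel gene cac was touched in both (scores 298 and 332). The others were eag, SK and Ca-alpha1T in repeat 1 and para, the sodium channel gene, in repeat 2 (score 109). The median span of these 18 genes was 47801.5 bp.

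Synaptic and neuronal genes were touched in 6 of 23 cases in repeat 1 (26.1%) and 1 in repeat 2 (4.35%), with none in both. The median span of the list was 30733 bp, and 95.7% of it lay in FLAG islands of w1118. The 6 were dlg1, a synaptic scaffold gene (score 400), Fas2, an adhesion gene (233), Snap25, of the vesicle fusion machinery (205), Rbfox1 (166), Rdl, a GABA receptor gene (102), and bru3 (89), and the 1 was nAChRalpha7 (106). Of 29 phototransduction genes, norpA, the phospholipase C of the photoreceptor (score 830), rdgA, a diacylglycerol kinase gene (346), and Trpgamma, a TRP channel gene (342), were touched in repeat 1, and Trpgamma also in repeat 2 (565). Among 8 Hox genes, of median span 30563 bp, Abd-B was in both (scores 132 and 178) and Antp in repeat 1 (98). Of 24 other Polycomb target genes, cad (125 and 130) and toy (190 and 543) were in both and Dr in repeat 1 (232). Pdp1 was the sole member of 11 clock genes (175 and 106). Of 12 genes of glia and other head cells, Mhc, the muscle myosin gene, was in both (184 and 212) and Eaat1, a glial glutamate transporter gene, in repeat 1 (426).

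Of 92 ribosomal protein genes 2 were touched in repeat 1 (2.17%) and 4 in repeat 2 (4.35%), RpL10 (scores 194 and 342) and RpL5 (114 and 834) in both, and RpL15 (671) and RpL38 (392) in repeat 2, shares near those over all genes, while 91.3% of the list lay in w1118 FLAG islands. Of 23 heat shock genes, Hsp27 (410) and Hsp70Bb (213) were in repeat 2 (8.70%, beside 3.24% of all genes) and none in repeat 1. Copies of Hsp70 are nearly identical, so reads can be assigned among them only in part. Of 32 small nuclear RNA genes snRNA:U1:82Eb was in repeat 1 (442) and snRNA:U12 in repeat 2 (498). Of 257 small nucleolar RNA genes 1 was in repeat 1 and 4 in repeat 2. Of 260 microRNA genes mir-9377 was in both (592 and 718) and mir-998 in repeat 1 (227). In a list of 4 genes, the telomeric 3L genes named by the study and Pdk1 outside that region, mthl8, a Methuselah-like receptor gene, was in repeat 2 (676).

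Transfer RNA genes were in AGO2-only islands at 14 of 295 in repeat 1 (4.75%) and 12 in repeat 2 (4.07%), and 10 were in both. Of the list, 243 of the 295 (82.4%) lay in FLAG islands of w1118. The genes in both formed few loci. These were the hts intron named above, a pair of tRNA:Ile-TAT genes (chr3L:768701-770500, score 528, and chr3L:768601-770500, score 612), a pair of tRNA:Arg-CCT genes (235 and 290), tRNA:Arg-ACG-1-3 at the start of EcR (393 and 594), tRNA:Met-CAT-1-2 (231 and 598) and tRNA:Val-CAC-2-5 (645 and 640). The isoleucine island had no other annotated gene in it. It touched HP1 islands of w1118 in library 1 only (61.1% of its length in repeat 1) and none of Top3b. Genes for tRNAs of 1 family are near copies, so reads within the gene itself can be shared among copies, and the part of this in the islands was not tested.

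Islands of the other proteins were compared next, to ask whether AGO2-only islands coincide with HP1, H3K9 methylation or Top3b. In repeat 1, 27.8%, 37.6% and 30.6% of the islands shared a base with HP1 islands of the 3 w1118 libraries (mean 32.0% ± 5.03, SD, n = 3). In repeat 2 the shares were 19.7%, 31.0% and 21.1% (mean 23.9% ± 6.13). Control FLAG islands gave 38.7%, 54.5% and 29.1% (mean 40.8% ± 12.8), so the ranges of repeat 1 and the control overlapped. For Top3b the means were 52.6% ± 8.09 in repeat 1, 26.8% ± 5.01 in repeat 2 and 56.3% ± 6.52 in the control. All 3 Top3b libraries gave a lower share for repeat 2 than any gave for repeat 1 or the control. For H3K9me2 the means were 25.7% ± 0.376, 15.7% ± 0.853 and 18.6% ± 6.50, and for H3K9me3 22.2% ± 0.497, 13.3% ± 0.400 and 10.5% ± 1.76. On H3K9me3 the ranges of both repeats and of the control did not overlap over all islands. Outside pericentric heterochromatin the H3K9me3 shares of repeat 2, 7.39% to 8.13%, overlapped the 5.48% to 8.98% of the control, while those of repeat 1 were 10.8% to 11.7%. Inside it they were 91.9% in repeat 2, 96.2% to 97.4% in repeat 1 and 94.5% to 96.1% in the control. The same libraries enter every share, and longer islands are more easily touched, so these are descriptions with no test. In none of the 12 w1118 lists lay 81 islands of repeat 1 (13.2%) and 205 of repeat 2 (35.5%).

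**Figure D4:**
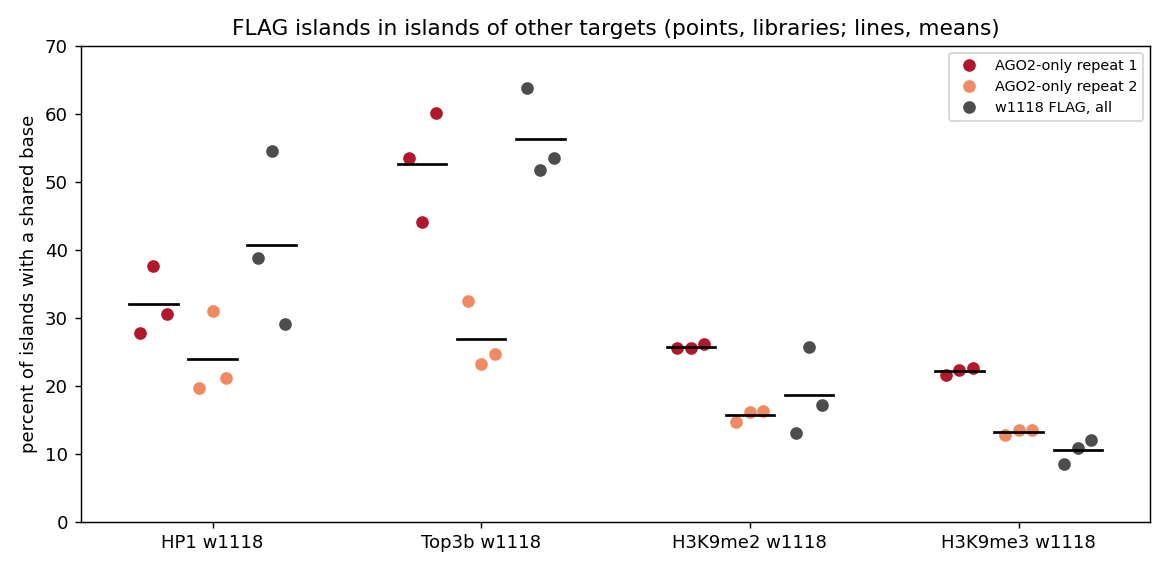
Percent of AGO2-only islands of repeat 1 and repeat 2, and of all w1118 FLAG islands, that share a base with islands of HP1, Top3b, H3K9me2 and H3K9me3 in w1118 (1 point per library, n = 3, black line the mean). Repeat 1 lies above repeat 2 in mean for every target, and its H3K9me3 mean of 22.2% is above the 10.5% of the control.

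The coincidence with HP1 differed by position. Of the 78 pericentric islands of repeat 1, 75 touched HP1 in all 3 w1118 libraries, as did 34 of 37 in repeat 2, and 61.3% of all pericentric 1-kb bins did. Control FLAG islands in pericentric heterochromatin gave a mean of 96.9% ± 0.804 per library, against 97.4% ± 1.28 for repeat 1 and 96.4% ± 1.56 for repeat 2. Outside it, the means were 22.5% ± 5.71 for repeat 1, 19.0% ± 6.66 for repeat 2 and 38.8% ± 13.3 for the control. At CHES-1-like, outside the pericentric bounds, HP1 islands covered 40.8%, 100% and 0% of the repeat 1 island in the w1118 libraries, and Top3b islands 64.8%, 0% and 14.1%.

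The HP1 lists of the mutants were then read over the AGO2-only islands. Over pericentric islands of repeat 1, HP1 covered 95.4%, 98.8% and 97.8% of the length in w1118, 93.4% and 92.6% in AGO2 1-1-7, 93.7% to 99.5% in Top3b26 and 95.8% and 99.1% in the double mutant. Over those of repeat 2 it covered 89.4%, 93.5% and 91.1% in w1118, 75.1% and 77.1% in AGO2 1-1-7, 75.4% to 94.2% in Top3b26 and 87.0% and 93.9% in the double mutant. Both AGO2 1-1-7 libraries were below all 3 of w1118 in each case, whereas the ranges of the other mutants overlapped w1118. Over all pericentric heterochromatin HP1 covered 57.3% to 59.7% in w1118 and 27.7% and 34.7% in AGO2 1-1-7. The HP1 lists of AGO2 1-1-7 were also smaller genome-wide, 8.48 and 14.8 Mb against 18.8 to 25.5 Mb in w1118, and the part of this in the lower values was not tested. The lists were also joined differently, with a smallest gap between islands of 1100 bp in libraries 2 and 3 of w1118 and of Top3b26 and 700 bp in all other HP1 libraries, both of AGO2 1-1-7 included. The part of this in the values was not tested either. With 3 libraries against 2 an exact permutation test cannot reach 0.05, and none was made.

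**Figure D5:**
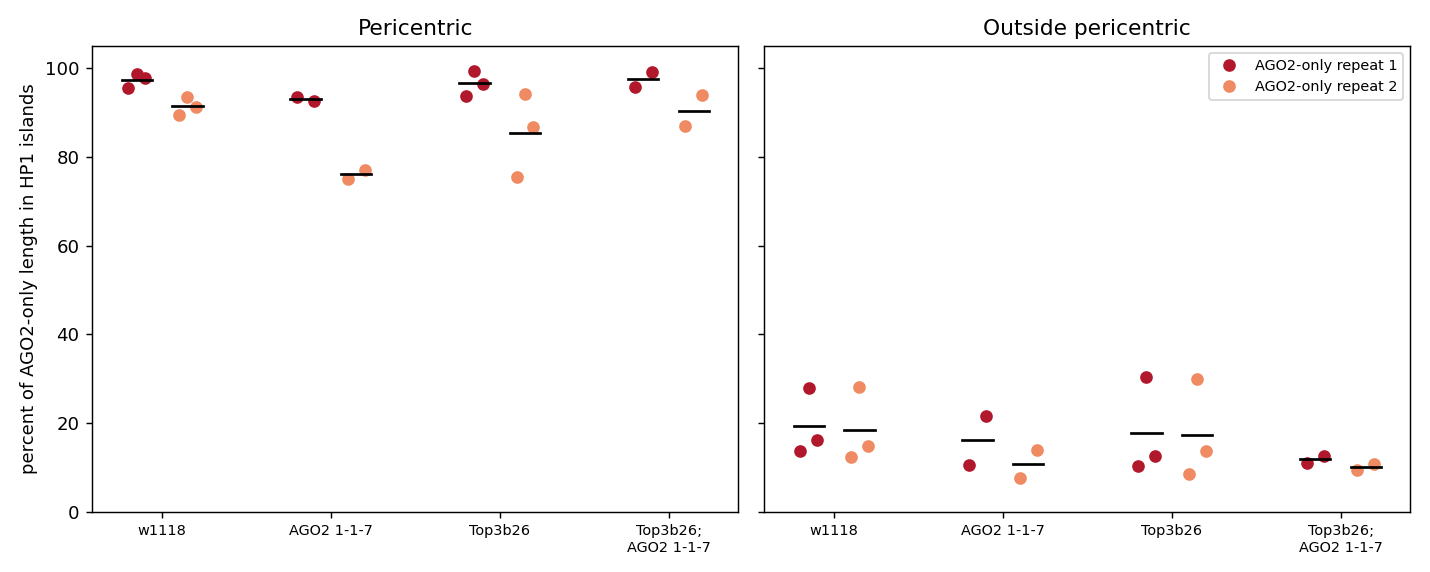
Percent of AGO2-only island length inside HP1 islands in each HP1 library (points) of w1118 (n = 3), AGO2 1-1-7 (n = 2), Top3b26 (n = 3) and Top3b26;AGO2 1-1-7 (n = 2), with means as black lines, for pericentric islands (left) and those outside (right). Pericentric islands of repeat 2 are at 75.1% and 77.1% in AGO2 1-1-7 against 89.4% to 93.5% in w1118.

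Island by island, few members had a smaller share of their length inside called HP1 islands in AGO2 1-1-7. A weaker HP1 signal that still leaves the island called does not change this share, so it is not an HP1 level. HP1 coverage was lower in both AGO2 1-1-7 libraries than in all w1118 libraries at 3 of 78 pericentric islands of repeat 1 (3.85%) and 3 of 37 of repeat 2 (8.11%), beside 25.7% of pericentric 1-kb bins. Outside, it was lower at 6 of 537 (1.12%) and 9 of 541 (1.66%), beside 2.6% of bins. It was higher at 7 of 537 (1.30%) and 5 of 541 (0.924%) outside, beside 0.321% of bins, and at none of the pericentric islands, beside 0.167% of bins. Bins and islands differ in length and the members lie in regions with HP1 in w1118 more often than bins do, so the shares are set side by side only.

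Clamp was the pericentric island lower in AGO2 1-1-7 in both repeats. Over its repeat 1 island HP1 covered 57.1%, 100% and 62.9% in w1118 and 0% in both AGO2 1-1-7 libraries. In Top3b26 the values were 0%, 97.1% and 51.4%, and in the double mutant 37.1% and 88.6%, so those lines overlapped w1118. The other pericentric islands lower in AGO2 1-1-7 were an island outside genes on 3L (chr3L:27173001-27173800, score 179) and a second in Myo81F (score 114) in repeat 1, where HP1 went from 100% in all w1118 libraries to 0% in both mutant ones. In repeat 2 they were RpL15, with 100% in w1118 and 63.3% and 60.0% in AGO2 1-1-7, and RpL5, with 48.1% to 55.6% and 40.7% and 44.4%. At RpL5 the step from 48.1% to 44.4% is small for lists on a 100-bp grid. Top3b26 gave 0%, 100% and 100% at the second Myo81F island, 63.3%, 100% and 100% at RpL15, and 22.2%, 59.3% and 37.0% at RpL5. The double mutant gave 100% in both libraries at Myo81F and RpL15, and 37.0% and 70.4% at RpL5. The 3L island outside genes was at 100% in every library of these lines.

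Outside the pericentric bounds RpL10 was lower in both repeats, with 100% of its repeat 1 island in HP1 in w1118 and 62.5% and 75% in AGO2 1-1-7. Telomeric regions, such as that of mthl8, and the X, the Y and the fourth chromosome all count as outside these bounds. At mthl8 (chr3L:21601-23100, repeat 2) HP1 covered 13.3%, 86.7% and 60.0% in w1118, 0% in both AGO2 1-1-7 libraries, 100% in all 3 of Top3b26, and 20.0% and 13.3% in the double mutant. These values are the share of the island's length inside called HP1 islands and not an HP1 level. At snRNA:U1:82Eb (repeat 1) the values were 100% in w1118 and in Top3b26, 57.1% and 42.9% in AGO2 1-1-7 and 42.9% in both double-mutant libraries. At CG32547 (chrX:18442401-18443500, score 306, repeat 1), named after its values were seen, the order was opposite, with 0% in w1118 and 100% in both AGO2 1-1-7 libraries.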

How the data were processed

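The deposited files are island lists, 1 for each library, in which every island has a whole-number score from SICER as run by the authors. No source used here states what 1 unit of score stands for, nor the number of reads per library. Per the study's methods, reads of 50 bases were mapped to dm6 with Bowtie (the processing notes name Bowtie2, SAMtools 1.8 and bedtools), with up to 2 mismatches and up to 3 positions, and islands were called in 100-bp windows with 600-bp gaps at a false discovery rate under 5% against input. For FLAG-AGO2 the study's methods describe a subtraction of the w1118 FLAG signal. The score column of repeat 2 is headed accordingly. That of repeat 1 is not, and 93.5% of its islands touched one of the control. The study set aside islands with scores below 200, while all deposited islands were kept here. Scores were used only to rank or filter within a list. Smallest gaps between islands were 700 bp in the FLAG lists and 700 or 1100 bp in the HP1 lists.

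Of 33 lists, 22 were used. They were read on their 100-bp grid with Python 3.11.15 and NumPy 2.4.6, and genes, exons and transposable elements came from BDGP annotation 6.54. The code was tested on simulated islands. Members, gene lists and the naming rule were chosen with earlier results of these data known. Named were AGO2, genes in the 10 highest-scoring AGO2-only islands of each list, the 10 shared loci of best mean rank, the 3 highest islands in pericentric heterochromatin and on chromosomes 4, X and Y, and members of the gene lists. Of the list symbols not annotated as such, all but 2 were matched through RefSeq synonyms. Other names were chosen after their values were seen. Alternatives were a minimum score of 200, 50% overlap, a 600-bp distance from the control, equal list lengths, other gene-start distances and leaving out each library. Whether repeats were separate pools of flies is not stated.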

Additional observations from a re-analysis of the deposited data

How the results depend on the processing

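Of 60 alternatives, 49 left the value within 1.5 times a count or within its error. For shares in HP1 that error was the SD over libraries. For gene starts it was a 95% binomial interval over islands, which are not replicates. With so few libraries, leaving out a single one always moves a mean by less than that SD. Those alternatives could not have counted as moved, so the 49 is no measure of robustness. With a score of at least 200, AGO2-only islands fell to 302 in repeat 1 and 334 in repeat 2 (335 in repeat 2 with that minimum in both lists), genes of repeat 1 to 269 and genes of both repeats to 141. Counting an island as shared only at 50% of its length gave 1225 islands in repeat 1 and cutting both lists to the length of repeat 2 gave 184. By gene starts, 130 genes of repeat 1 and 348 of repeat 2 were found. Leaving out 1 FLAG-AGO2 repeat gave 442 to 593 genes in place of 221, since a single list is less strict than both. Leaving out single HP1 libraries gave shares of islands in HP1 of 29.2% to 34.1% for repeat 1 and 20.4% to 26.0% for repeat 2. No paired analysis was made, since no result comes from a test and no pairing of libraries between lines is stated. The limits are the single control library, the lists made in different ways, the unknown depth and score unit, and low scores.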
